A study of Mus musculus with 6 samples.

Results

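Oxidative phosphorylation (OXPHOS) genes encoded in the nucleus were followed in mouse helper T cells cultured with CX-4945, an inhibitor of the protein kinase CK2, or with its solvent DMSO. The genes were chosen by a rule on names, set with earlier results of these data known. It takes symbols that begin with Nduf, Uqcr, Cox4 to Cox8 or Atp5, together with Sdha, Sdhb, Sdhc and Sdhd. Rows marked as pseudogenes were left out. The rule found 93 of the 38924 genes in the deposited table. Of these, 84 encode structural subunits: 36 of complex I, 4 of complex II, 8 of complex III, 20 of complex IV and 16 of complex V. A further 7 encode complex I assembly factors (Ndufaf genes), and 2, Atp5s and Atp5sl, encode accessory proteins named after ATP synthase. Ndufa4 and Ndufa4l2 were counted with complex IV, where the Ndufa4 protein is now placed.

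Complexes I to IV carry electrons from NADH and succinate to oxygen and, except complex II, pump protons across the inner mitochondrial membrane. Complex V, the ATP synthase, uses the proton gradient to make ATP. Most subunits come from nuclear genes and are imported into the organelle, while a small core is encoded by mitochondrial DNA. T cells enlarge their mitochondria and raise both glycolysis and respiration after activation through the T cell receptor.

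Both groups held naive CD4+ T cells from spleens of C57 BL/6 mice, kept for 72 h in a mixture that drives the Th17 fate. It held the cytokines TGFb1, IL-6 and IL-23 along with the antibodies anti-CD28 and anti-CD3. The 3 CX-4945 cultures received the inhibitor at 2 mM according to the labels, a unit that could not be checked, and the 3 DMSO cultures received solvent. CX-4945 acts on kinase activity, so no transcript level checks the treatment itself. The replicates are called biological. Separate mice are not mentioned, so the spread behind each p-value is that between 3 cultures of a group and may be technical. The libraries carry the numbers of the deposited table, 2, 4 and 6 for CX-4945 and 1, 3 and 5 for DMSO.

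Levels are unique exon reads, meaning reads placed at a single locus, as CPM (reads scaled to a common library size) after TMM scaling, a correction for library composition. Reads that fit several loci are not in these counts and were not analysed here, so genes with close copies or processed pseudogenes may be counted in part. Gene positions are those of the table, on mm10. Depth was 22178614 to 26148189 such reads per library. Fold changes are CX-4945 over DMSO from edgeR's quasi-likelihood test over all 12502 genes that passed a filter on low counts, and a call is a Benjamini-Hochberg adjusted p under 0.05. The CD4 T cell markers were abundant, but 7 of 8 (87.5%) were called lower with CX-4945, where 31.3% of all tested genes were. The summed level of these markers was 2573 to 2646 CPM with CX-4945, against 3899 to 4097 CPM with DMSO. Of 13 markers of other cell types, 12 were in the table and none was at 0 over a whole group. Of these, 7 were tested and 1 (14.3%), Cd8b1, was called, lower. Their summed level was 23.8 to 36.4 CPM with CX-4945, against 33.5 to 40.7 CPM with DMSO, and the part of these shifts in the results below was not tested.

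Most subunit transcripts differed little, and those that passed the test were more often higher than lower with CX-4945. Of the 77 subunits tested, 25 were higher, 10 were lower and 42 did not pass. The 35 calls make 45.5% of the subunits, whereas 61.9% of all tested genes were called, 30.6% higher and 31.3% lower. The share of higher calls among subunits was near that of all tested genes, and the share of lower calls was below it. The median log2 fold change was 0.11 over the subunits and -0.003 over all tested genes, and 55 of the 77 subunits (71.4%) lay within 1.25-fold, against 46.9% of all genes. Only 6 subunits were called with a change of at least 1.5-fold, 2 higher and 4 lower, where 28.1% of all genes met that rule. The CX-4945 and DMSO libraries did not overlap in 45 subunits, and in 69.7% of all tested genes. Leaving out each library in turn, 24 of the 35 subunit calls held every time, 16 higher and 8 lower. In bulk RNA, fewer cells of a type and less RNA per cell cannot be told apart.

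**Figure D1:**
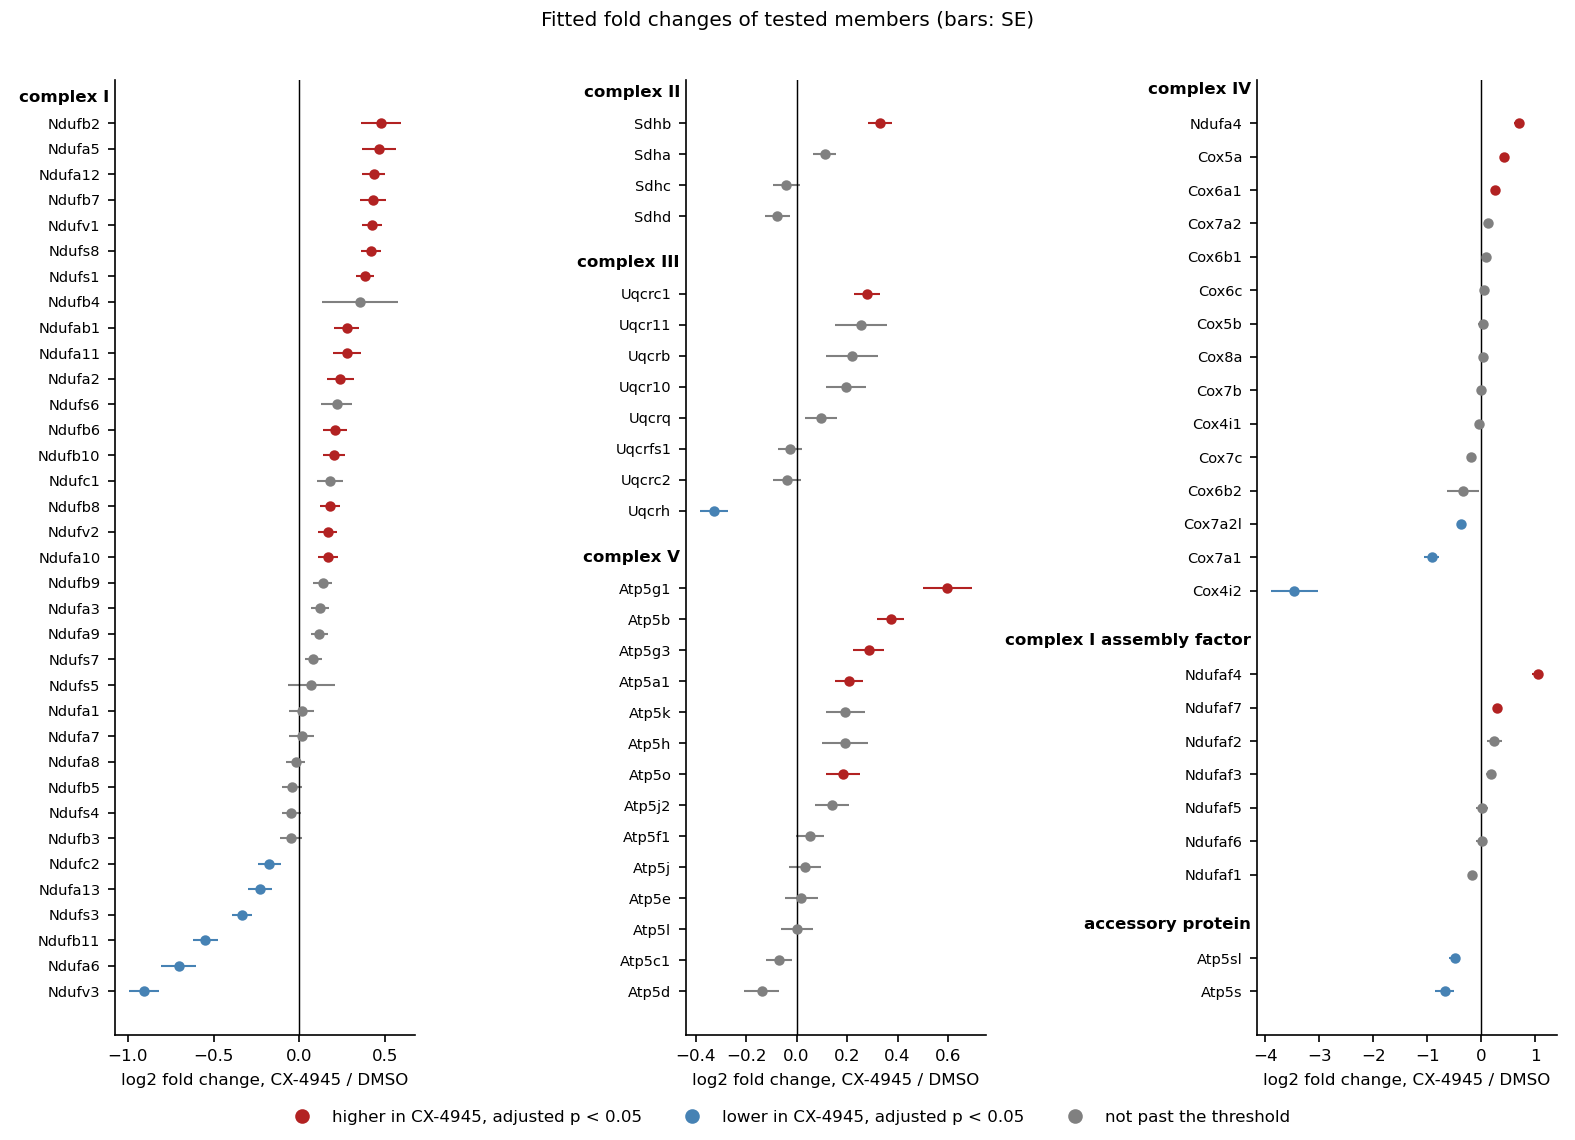
Log2 fold change of CX-4945 over DMSO with its SE for tested genes, grouped by complex and sorted by value, on separate axes for the 3 columns. Red points passed the test as higher and blue points as lower with CX-4945, and grey points did not pass. Complex I holds both directions, from 0.47 (Ndufb2) to -0.90 (Ndufv3), complex V has no lower call, and Cox4i2 at -3.46 lies far outside the rest.

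The summed level of all structural subunits was 9937, 10237 and 9811 CPM in CX-4945 libraries 2, 4 and 6, against 9614, 9127 and 9075 CPM in DMSO libraries 1, 3 and 5. The sums therefore did not overlap, and complex V carried most of the gap. Its subunits summed to 4414, 4487 and 4344 CPM with CX-4945, against 3935, 3828 and 3713 CPM with DMSO. Most of that gap came from the abundant Atp5b and Atp5a1. Atp5b averaged 1691 CPM with CX-4945 and 1306 CPM with DMSO, and Atp5a1 1036 and 897 CPM. Of the 14 tested complex V subunits, 9 did not pass. The complex I sum overlapped between groups, at 2456, 2543 and 2427 CPM with CX-4945 and 2596, 2393 and 2466 CPM with DMSO.

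Complex I had 15 higher and 6 lower calls among 36 subunits, with a median log2 fold change of 0.15. The calls make 58.3% of its subunits, near the 61.9% of all tested genes, with 41.7% higher and 16.7% lower where all genes had 30.6% and 31.3%. Without at least 1 of the libraries, 7 of the higher and 2 of the lower calls were lost. Its nuclear core subunits bind the flavin and iron-sulfur clusters of the arm that protrudes into the matrix. Of these, 4 rose (Ndufv1, Ndufv2, Ndufs1 and Ndufs8), 1 fell (Ndufs3), and Ndufs7 did not pass. Among the 29 accessory subunits, which surround the core, 11 rose and 5 fell. Without CX-4945 library 4 the higher calls of complex I numbered 8.

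Ndufv1 (chromosome 19, 4007497 to 4012806), which binds flavin and takes electrons from NADH, had 129, 135 and 125 CPM with CX-4945, against 97.9, 101 and 92.2 CPM with DMSO. Every CX-4945 library was above every DMSO library (edgeR log2 fold change 0.42 ± 0.06 SE, adjusted p = 0.00035). Its partner Ndufv2, an iron-sulfur protein, had 113, 118 and 113 CPM with CX-4945, against 107, 96.8 and 103 CPM with DMSO. The groups lie close without overlapping (edgeR log2 fold change 0.16 ± 0.06 SE, adjusted p = 0.03), and the call was lost on leaving out any CX-4945 library or DMSO library 3, with adjusted p up to 0.097. Ndufs1 (chromosome 1, 63143596 to 63176822), the largest subunit and carrier of several iron-sulfur clusters, had 74.4, 77.3 and 74.3 CPM with CX-4945, against 58.2, 59.9 and 55.3 CPM with DMSO. It was 1.30-fold higher (edgeR log2 fold change 0.38 ± 0.05 SE, adjusted p = 0.00047). Its exons overlap those of Eef1b2 on the opposite strand, and the strand setting of the authors' counting is not given in the sources used here, so reads of such pairs cannot be told apart. Exons of 29 members overlap an opposite gene in this way, among them the called Atp5a1, Atp5o, Cox5a, Ndufa2, Ndufa11, Ndufa13, Ndufab1, Ndufb2, Ndufb6, Ndufb11 and Ndufs3. Exons of 5 members overlap another annotated gene on the same strand, which no strand setting would separate. They are Atp5g2, Ndufb9 and the called Atp5o, Ndufb2 and Ndufb8. For Atp5o the overlapping gene is another annotated entry of the same name. Ndufs8 (chromosome 19, 3908870 to 3912717), which holds iron-sulfur clusters on the path to ubiquinone, had 54.1, 54.2 and 52.3 CPM with CX-4945, against 42.4, 39.7 and 38.4 CPM with DMSO, again without overlap (edgeR log2 fold change 0.42 ± 0.06 SE, adjusted p = 0.00047).

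Ndufs3 and Ndufs7 did not share the rise. Ndufs3 (chromosome 2, 90894634 to 90904827), which joins the matrix arm early in its assembly, had 47.8, 48.1 and 46.5 CPM with CX-4945, against 62.5, 56.2 and 60.5 CPM with DMSO, all lower with CX-4945 (edgeR log2 fold change -0.33 ± 0.06 SE, adjusted p = 0.0014). Kbtbd4 overlaps Ndufs3 on the opposite strand. Ndufs7, the subunit with the last iron-sulfur cluster, had 68.2, 68.5 and 68.1 CPM with CX-4945, against 65.1, 62.5 and 66.2 CPM with DMSO, a gap of 1.06-fold that did not pass (edgeR log2 fold change 0.08 ± 0.05 SE, adjusted p = 0.19).

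The lowest fold changes in complex I belonged to accessory subunits. Ndufv3 (chromosome 17, 31520115 to 31531321), a small subunit at the NADH-oxidizing tip, had 93.8, 92.5 and 100.03 CPM with CX-4945, against 199, 155 and 182 CPM with DMSO. Its DMSO libraries varied more than its CX-4945 libraries, yet the groups stayed far apart (edgeR log2 fold change -0.90 ± 0.09 SE, adjusted p = 8.9e-05). Ndufa6 (chromosome 15, 82350139 to 82354291), an LYR-motif protein that docks the mitochondrial acyl carrier protein, had 57.4, 54.8 and 60.2 CPM with CX-4945, against 99.9, 78.6 and 102 CPM with DMSO. DMSO library 3 was the lowest of its group and still above all CX-4945 libraries (edgeR log2 fold change -0.70 ± 0.10 SE, adjusted p = 0.0005). Ndufb11 (chromosome X, 20615326 to 20617619), a membrane-arm subunit encoded on the X chromosome, had 126, 135 and 135 CPM with CX-4945, against 202, 174 and 202 CPM with DMSO (edgeR log2 fold change -0.55 ± 0.07 SE, adjusted p = 0.00031), and its exons overlap Rbm10 on the opposite strand. The other 2 lower calls were smaller: Ndufa13, the subunit also known as GRIM-19, at -0.23 on the log2 scale, and Ndufc2 at -0.18. Both calls were lost on leaving out single libraries, with adjusted p up to 0.077 for Ndufa13 and 0.15 for Ndufc2.

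The highest fold changes in complex I were also accessory. Ndufb2, a membrane-arm subunit, had 16.8, 20.3 and 15.5 CPM with CX-4945, against 13.7, 12.2 and 11.8 CPM with DMSO (edgeR log2 fold change 0.47 ± 0.12 SE, adjusted p = 0.0083). Exons of Braf overlap Ndufb2 on the opposite strand, and those of Gm42420 on the same strand. Ndufa5 of the matrix arm had 32.9, 34.1 and 28.6 CPM with CX-4945, against 23.9, 24.9 and 20.5 CPM with DMSO (edgeR log2 fold change 0.46 ± 0.10 SE, adjusted p = 0.0037). Ndufa12, a late-joining matrix-arm subunit, had 34.3, 38.1 and 35.5 CPM with CX-4945, against 27.6, 26.1 and 26.2 CPM with DMSO (edgeR log2 fold change 0.43 ± 0.07 SE, adjusted p = 0.0007). Ndufb7, on the intermembrane side of the membrane arm, was close behind at 0.43 ± 0.08. The remaining accessory calls, Ndufab1 (the acyl carrier protein), Ndufa11, Ndufa2, Ndufb6, Ndufb10, Ndufb8 and Ndufa10, ran between 0.16 and 0.28. Of these 7, all but Ndufab1 lost the call in at least 1 fit without a single library. The 13 accessory subunits that did not pass, from low to high Ndufb3, Ndufs4, Ndufb5, Ndufa8, Ndufa7, Ndufa1, Ndufs5, Ndufa9, Ndufa3, Ndufb9, Ndufc1, Ndufs6 and Ndufb4, lay between -0.05 and 0.35. Ndufb4 had only 1.40 to 2.52 CPM.

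**Figure D2:**
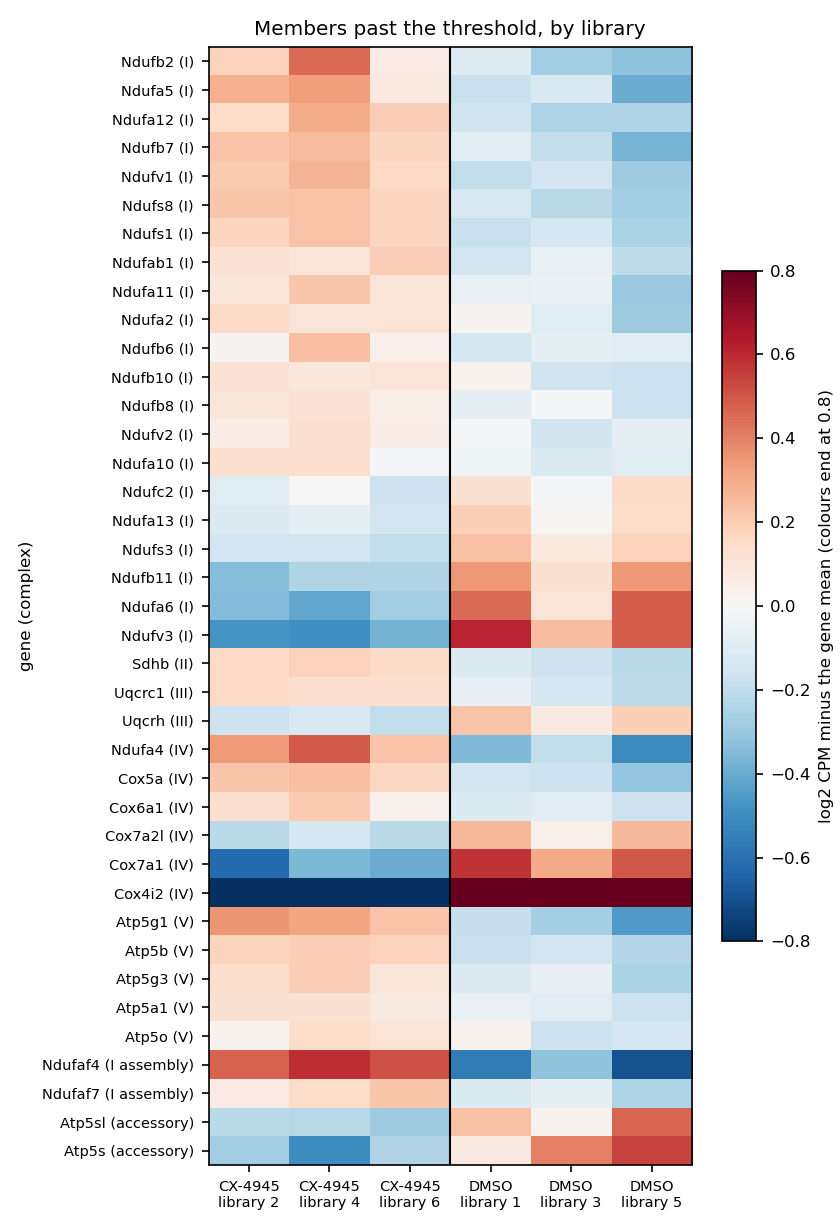
Log2 CPM minus the gene's mean over all 6 libraries, for the 39 called genes, with the 3 CX-4945 libraries left of the 3 DMSO libraries; red is above and blue below the mean, and colours end at 0.8. Ndufv3 and Ndufa6 are paler in DMSO library 3 than in DMSO libraries 1 and 5, and Ndufaf4 keeps its contrast in every library.

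In complex II, succinate dehydrogenase, 1 of 4 subunits (25%) passed, as higher, where 61.9% of all tested genes passed in either direction. Sdhb (chromosome 4, 140961203 to 140979193), the iron-sulfur subunit, had 156, 158 and 155 CPM with CX-4945, against 129, 124 and 120.3 CPM with DMSO, well apart (edgeR log2 fold change 0.33 ± 0.05 SE, adjusted p = 0.00055). Sdha, the flavoprotein that oxidizes succinate, had 329.7, 335 and 322 CPM with CX-4945, against 304, 306 and 303 CPM with DMSO. Its groups did not overlap but the gap missed the threshold (edgeR log2 fold change 0.11 ± 0.05 SE, adjusted p = 0.06). The membrane anchors Sdhc and Sdhd had log2 fold changes of -0.04 ± 0.05 and -0.08 ± 0.05, neither called. Sdhc had 87.8, 94.0 and 91.0 CPM with CX-4945, against 97.0, 92.0 and 91.3 CPM with DMSO. Sdhd had 97.6, 101 and 94.7 CPM with CX-4945, against 105, 101 and 102 CPM with DMSO.

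In complex III, which passes electrons from ubiquinol to cytochrome c, 1 of 8 subunits rose and 1 fell (12.5% each). All tested genes had 30.6% higher and 31.3% lower calls. Higher calls numbered 3 without DMSO library 1, with Uqcr10 and Uqcr11 beside Uqcrc1, and 2 without CX-4945 library 6 (Uqcr11 added) or DMSO library 3 (Uqcrb added). Uqcrc1 (chromosome 9, 108936648 to 108949640), a core protein of the matrix side, had 188, 183 and 184 CPM with CX-4945, against 160.3, 152 and 145 CPM with DMSO (edgeR log2 fold change 0.28 ± 0.05 SE, adjusted p = 0.002). Uqcrh (chromosome 4, 116066965 to 116075071), the hinge protein that helps cytochrome c dock, had 127, 131 and 125 CPM with CX-4945, against 168, 150.3 and 163 CPM with DMSO (edgeR log2 fold change -0.33 ± 0.06 SE, adjusted p = 0.0013). Both were separated by library, in opposite directions. The Rieske iron-sulfur subunit Uqcrfs1 had 165, 168 and 168 CPM with CX-4945, against 177, 166 and 167 CPM with DMSO, with overlapping groups (edgeR log2 fold change -0.03 ± 0.05 SE, adjusted p = 0.65). The other 5 subunits, Uqcrc2, Uqcrq, Uqcr10, Uqcrb and Uqcr11, lay between -0.04 and 0.25 in that order and did not pass. Cyc1, the cytochrome c1 of this complex, does not match the naming rule. It was higher, at 170.2, 168 and 171 CPM with CX-4945, against 122, 122 and 103 CPM with DMSO (edgeR log2 fold change 0.55 ± 0.07 SE, adjusted p = 0.00026).

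Complex IV, cytochrome c oxidase, had 3 higher and 3 lower calls among 15 tested subunits, with a median log2 fold change of 0.02. That is 20.0% in each direction, where all tested genes had 30.6% higher and 31.3% lower calls. Ndufa4 (chromosome 6, 11900373 to 11907446) was the subunit with the highest fold change of any complex, at 97.3, 108 and 90.1 CPM with CX-4945, against 60.3, 67.3 and 54.0 CPM with DMSO. The lowest CX-4945 library stood well above the highest DMSO library (edgeR log2 fold change 0.70 ± 0.09 SE, adjusted p = 0.00037). Cox5a (chromosome 9, 57521232 to 57532424), a structural subunit on the matrix side, had 127, 128 and 122 CPM with CX-4945, against 98.3, 96.5 and 87.9 CPM with DMSO (edgeR log2 fold change 0.42 ± 0.06 SE, adjusted p = 0.00044). Cox6a1, the widely expressed Cox6a isoform, had 281, 297 and 265 CPM with CX-4945, against 237, 241 and 229 CPM with DMSO (edgeR log2 fold change 0.25 ± 0.06 SE, adjusted p = 0.0048). The remaining structural subunits that T cells express at a high level differed little. Cox4i1, the common Cox4 isoform, had 126, 131 and 123 CPM with CX-4945, against 139, 128 and 128 CPM with DMSO (-0.05 ± 0.05 on the log2 scale). Cox5b, a zinc-binding subunit, had 48.7, 52.9 and 46.3 CPM with CX-4945, against 52.7, 48.2 and 44.1 CPM with DMSO (0.03 ± 0.08). Both overlapped between groups, and so did Cox6b1, Cox6c, Cox7b and Cox8a, at log2 fold changes of 0.00 to 0.09. Cox7c had a log2 fold change of -0.19 ± 0.08 and did not pass.

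The lower calls of complex IV fell on isoforms and on a supercomplex factor. Cox4i2 (chromosome 2, 152754173 to 152765037), the Cox4 isoform best known from lung and from low oxygen, had 0.242, 0.354 and 0.187 CPM with CX-4945, against 2.76, 1.67 and 4.24 CPM with DMSO. It was scarce in both groups, with 19 unique reads over the CX-4945 libraries and 206 over the DMSO libraries (edgeR log2 fold change -3.46 ± 0.44 SE, adjusted p = 0.00029), and the DMSO libraries differed widely among themselves. Cox7a1 (chromosome 7, 30184171 to 30186028), the heart and skeletal muscle isoform of Cox7a, had 2.94, 3.54 and 3.44 CPM with CX-4945, against 6.77, 5.59 and 6.40 CPM with DMSO (edgeR log2 fold change -0.92 ± 0.14 SE, adjusted p = 0.00068). Cox7a2l (chromosome 17, 83501919 to 83514333), which tethers complexes III and IV and occurs in a shorter form in C57BL/6 strains, had 162, 171 and 162 CPM with CX-4945, against 226, 193 and 225 CPM with DMSO. Its DMSO library 3 was again the lowest of that group (edgeR log2 fold change -0.38 ± 0.07 SE, adjusted p = 0.0016). Cox7a2, the common Cox7a isoform, had 88.7, 94.5 and 88.7 CPM with CX-4945, against 86.4, 80.9 and 82.1 CPM with DMSO, separated but not called (edgeR log2 fold change 0.12 ± 0.05 SE, adjusted p = 0.072).

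Isoform shares, taken per kilobase of exon within each isoform group, are given as a description, with no test. Cox4i2 made 0.400% ± 0.116 of Cox4 reads with CX-4945 and 4.13% ± 1.84 with DMSO (SD, n = 3 each). Cox7a2 made 44.0% ± 0.189 of Cox7a reads with CX-4945 and 35.1% ± 1.59 with DMSO, Cox7a2l 52.7% ± 0.271 with CX-4945 and 59.5% ± 1.48 with DMSO, and Cox7a1 3.32% ± 0.264 with CX-4945 and 5.45% ± 0.176 with DMSO. None of these shares overlapped between groups. Cox4i1 held the rest of the Cox4 reads, at 99.6% with CX-4945 and 95.9% with DMSO. The testis and muscle isoforms Cox6a2, Cox7b2, Cox8b and Cox8c, and Ndufa4l2, were under the filter, with 0 to 0.161 CPM in every library, where a count of 0 still allows up to 3 reads, or 0.115 to 0.135 CPM by counting error only. Cox6b2, a testis isoform, was tested at 1.06 to 2.80 CPM and did not pass (edgeR log2 fold change -0.34 ± 0.30 SE, adjusted p = 0.35).

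**Figure D3:**
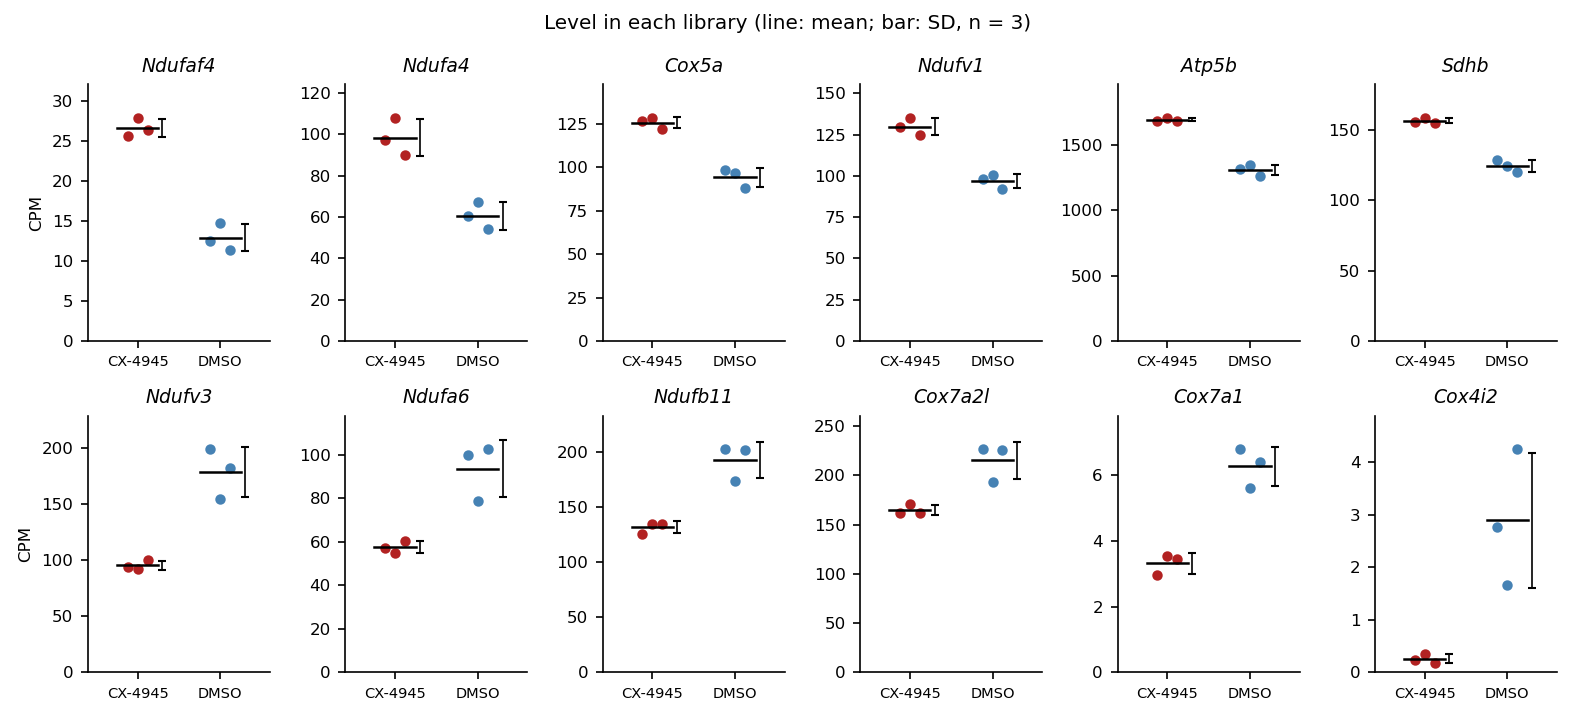
CPM in each library for 12 genes, CX-4945 left of DMSO in every panel; the line is the group mean and the bar its SD (n = 3). In the upper row the 3 CX-4945 points lie above the 3 DMSO points, and in the lower row below them, with Cox4i2 under 0.4 CPM in each CX-4945 library.

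In complex V, the ATP synthase, 5 of 14 tested subunits (35.7%) were higher, where 30.6% of all tested genes were, and none was lower by edgeR, with a median log2 fold change of 0.16. At an unadjusted p under 0.05 the count of lower subunits was also 0, and it was 0 with DESeq2. Without CX-4945 library 2 the higher calls numbered 3, and without DMSO library 3 there was 1 lower call, Atp5d. The catalytic head is made of alpha, beta and smaller subunits, and the membrane rotor is a ring of c subunits. Atp5b (chromosome 10, 128083273 to 128090391), the catalytic beta subunit, had 1683, 1705 and 1685 CPM with CX-4945, against 1314, 1342 and 1262 CPM with DMSO, and with 399 CPM per kilobase under CX-4945 and 308 under DMSO it was among the most abundant members (edgeR log2 fold change 0.37 ± 0.05 SE, adjusted p = 0.00048). Atp5a1, the alpha subunit, had 1048, 1049 and 1012 CPM with CX-4945, against 925, 911 and 856 CPM with DMSO. Its groups did not overlap (edgeR log2 fold change 0.21 ± 0.05 SE, adjusted p = 0.01), but without CX-4945 library 2 the adjusted p was 0.054. Atp5c1, the gamma stalk subunit, had 209, 211 and 205 CPM with CX-4945, against 219, 209 and 228 CPM with DMSO, with overlap (edgeR log2 fold change -0.07 ± 0.05 SE, adjusted p = 0.26).

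The c subunit has 3 genes whose mature proteins are identical. Atp5g3 had 297, 309.9 and 288 CPM with CX-4945, against 249, 258 and 227 CPM with DMSO (edgeR log2 fold change 0.29 ± 0.06 SE, adjusted p = 0.0041). Atp5g1 had 15.1, 14.8 and 13.9 CPM with CX-4945, against 10.4, 9.85 and 8.65 CPM with DMSO (edgeR log2 fold change 0.60 ± 0.10 SE, adjusted p = 0.0011). Atp5g2 had no unique read in any library, so its level is not known from these counts. Among the unique reads of the 3 genes per kilobase, Atp5g1 made 2.12% ± 0.0740 with CX-4945 and 1.72% ± 0.0881 with DMSO (SD, n = 3 each), and Atp5g3 nearly all the rest. Atp5o, the stalk subunit that links head and stator, was called at 0.18 with overlapping groups, and had an adjusted p up to 0.13 without single libraries. The 9 subunits that did not pass lay between -0.14 (Atp5d, the delta subunit of the head) and 0.19 (Atp5k, subunit e of the membrane part), with Atp5c1, Atp5l, Atp5e, Atp5j, Atp5f1, Atp5j2 and Atp5h between them. Atp5l2, listed with an exon length of 0, had no read.

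The 7 complex I assembly factors had 2 higher calls (28.6%) and no lower call by edgeR, where all tested genes had 30.6% and 31.3%. Their median log2 fold change was 0.18. DESeq2 called 0 lower, and 1, Ndufaf1, was lower at an unadjusted p under 0.05. Ndufaf4 (chromosome 4, 24898083 to 24905001), which helps assemble the matrix arm, showed the highest fold change of all 86 genes tested. Its level was 25.7, 27.9 and 26.4 CPM with CX-4945, against 12.5, 14.8 and 11.4 CPM with DMSO. Every CX-4945 library stood far above every DMSO library (edgeR log2 fold change 1.05 ± 0.10 SE, adjusted p = 8.4e-05). Ndufaf7, a methyltransferase that modifies a core subunit, had 21.5, 22.8 and 24.0 CPM with CX-4945, against 19.0, 19.5 and 17.3 CPM with DMSO (edgeR log2 fold change 0.29 ± 0.08 SE, adjusted p = 0.012). Ndufaf1, Ndufaf2, Ndufaf3, Ndufaf5 and Ndufaf6 lay between -0.17 and 0.24. Both accessory proteins were lower. Atp5sl, also called DMAC2 and known from assembly of the distal membrane arm of complex I, had 51.0, 50.7 and 48.6 CPM with CX-4945, against 69.7, 60.3 and 81.6 CPM with DMSO (edgeR log2 fold change -0.49 ± 0.10 SE, adjusted p = 0.0032). Atp5s, also called coupling factor B, had 2.26, 1.94 and 2.32 CPM with CX-4945, against 2.88, 3.63 and 3.99 CPM with DMSO (edgeR log2 fold change -0.68 ± 0.18 SE, adjusted p = 0.0094). Their DMSO libraries spread widely, without reaching the CX-4945 range.

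Promoters of members, called or not, were read for motifs of factors known to act on respiratory genes. RefSeq promoter windows of GRCm38.p6, from 250 bases before to 50 after each gene start, were matched to 76 of the 93 genes. The windows of 4 genes, picked after their values were seen, are shown because each holds a searched motif while the genes went in different directions: Ndufaf4, Ndufs8 and Atp5b rose, and Ndufa6 fell. Capitals mark the match, to the NRF1 motif core CATGCGC on either strand in Ndufaf4 and Ndufa6, to the ETS motif CCGGAAG (here on the other strand) in Ndufs8, and to the YY1 motif ATGGCGG (other strand) in Atp5b. The window of Ndufaf4 is chr4:24897833-24898132 on the plus strand, that of Ndufa6 chr15:82354242-82354541 on the minus strand, that of Ndufs8 chr19:3912725-3913024 on the minus strand and that of Atp5b chr10:128083057-128083356 on the plus strand.
Ndufaf4: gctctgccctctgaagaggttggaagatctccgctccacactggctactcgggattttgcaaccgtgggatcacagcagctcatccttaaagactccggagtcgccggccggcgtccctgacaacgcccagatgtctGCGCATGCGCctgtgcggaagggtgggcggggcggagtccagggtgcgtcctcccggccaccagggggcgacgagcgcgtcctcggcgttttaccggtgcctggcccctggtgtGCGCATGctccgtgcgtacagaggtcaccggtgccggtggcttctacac
Ndufa6: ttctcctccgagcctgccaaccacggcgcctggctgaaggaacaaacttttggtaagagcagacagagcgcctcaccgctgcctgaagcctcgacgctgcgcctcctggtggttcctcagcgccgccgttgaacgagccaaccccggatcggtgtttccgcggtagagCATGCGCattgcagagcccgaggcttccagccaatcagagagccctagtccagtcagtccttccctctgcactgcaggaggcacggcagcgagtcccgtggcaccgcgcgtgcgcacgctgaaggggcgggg
Ndufs8: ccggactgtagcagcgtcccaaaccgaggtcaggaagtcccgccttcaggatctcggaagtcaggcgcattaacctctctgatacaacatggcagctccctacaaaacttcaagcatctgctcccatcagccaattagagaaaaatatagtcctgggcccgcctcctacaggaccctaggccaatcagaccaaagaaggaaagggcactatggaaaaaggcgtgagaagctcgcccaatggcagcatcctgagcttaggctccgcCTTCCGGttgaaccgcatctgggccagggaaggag
Atp5b: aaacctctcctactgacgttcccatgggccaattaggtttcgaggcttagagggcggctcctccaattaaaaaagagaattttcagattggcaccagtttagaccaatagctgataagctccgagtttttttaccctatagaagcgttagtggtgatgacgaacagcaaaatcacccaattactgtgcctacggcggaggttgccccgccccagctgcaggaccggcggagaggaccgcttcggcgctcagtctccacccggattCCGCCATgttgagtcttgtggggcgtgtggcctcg
Ndufaf4 holds 3 NRF1 matches, of which those from bases 138 and 141 of the window overlap on opposite strands, and the one from base 252 lies just past the gene start. Ndufa6 holds 1, from base 169, before the gene start. Both strands were searched. The NRF1 letters occurred in 15 of 76 member promoters (19.7%), against 8.03% of 9756 tested genes and 4.41% of 27025 genes with a promoter in the table. They stood in 7 of 24 higher members and 1 of 11 lower members, and no test was made of that split. The ETS letters occurred in 17 members (22.4%), against 20.8% of tested genes and 9.93% of all, and the YY1 letters in 12 (15.8%), against 9.59% and 4.69%. No 2 matches of different motifs overlapped in a member window. A match is a description of the letters, not evidence of binding.

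The mitochondrially encoded partners of these subunits had 4 higher calls and 1 lower call among 12 tested. The higher share, 33.3%, is near the 30.6% of all tested genes, and the lower share, 8.33%, is below their 31.3%. The untested mt-Nd4l had no unique read in any library, so its level is not known from these counts. Of the 4 higher calls, mt-Nd2 and mt-Cytb were lost without CX-4945 library 2 or 4 or DMSO library 1 or 5, with adjusted p up to 0.15 for mt-Nd2 and 0.13 for mt-Cytb. mt-Nd3 had 146, 174 and 139 CPM with CX-4945, against 99.4, 109 and 82.5 CPM with DMSO (edgeR log2 fold change 0.66 ± 0.11 SE, adjusted p = 0.0014). mt-Nd1, another complex I subunit, had 1315, 1578 and 1245 CPM with CX-4945, against 1045, 1093 and 778 CPM with DMSO (edgeR log2 fold change 0.51 ± 0.14 SE, adjusted p = 0.012). mt-Co1, the catalytic subunit of complex IV, had 5069.7, 6019.9 and 4557 CPM with CX-4945, against 7355, 6223 and 6423 CPM with DMSO, and its lower call (edgeR log2 fold change -0.35 ± 0.11 SE, adjusted p = 0.023) was lost without CX-4945 library 2, CX-4945 library 6 or DMSO library 1, with adjusted p up to 0.093. The summed level of these genes overlapped, at 18272, 21822 and 16313 CPM with CX-4945 and 19756, 18599 and 16142 CPM with DMSO.

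Assembly factors outside the naming rule had 5 higher and 10 lower calls among 34, and a median log2 fold change of -0.09. The lower share, 29.4%, is near the 31.3% of all tested genes, and the higher share was 14.7%, against 30.6%. Single libraries decided 6 of the lower calls (Ecsit, Nubpl, Bcs1l, Cox15, Cox17 and Cmc1) and 2 of the higher ones (Foxred1 and Sdhaf2). Surf1, needed to build complex IV, had 35.4, 36.5 and 35.4 CPM with CX-4945, against 57.0, 53.9 and 64.2 CPM with DMSO (edgeR log2 fold change -0.71 ± 0.07 SE, adjusted p = 0.0001). Cox10, which makes the heme A precursor of complex IV, was lower at -0.42 ± 0.07, and Ttc19, a complex III factor, at -0.45 ± 0.08. Among 19 electron carrier and coenzyme Q genes, 8 rose (42.1%) and 2 fell, and 2 of the rises, Coq2 and Coq6, were lost without single libraries. Pdss1, which makes the coenzyme Q side chain, had 20.2, 17.1 and 17.1 CPM with CX-4945, against 11.1, 11.5 and 10.1 CPM with DMSO (edgeR log2 fold change 0.74 ± 0.10 SE, adjusted p = 0.00042). Cycs, cytochrome c itself, which has many processed pseudogenes, was higher at 0.74 ± 0.11. A list of 12 genes held modulators of supercomplexes and ATP synthase, the subunit Cox7a2l among them. It also held the carriers Ucp2, Slc25a4 and Slc25a5 and the channels Vdac1, Vdac2 and Vdac3. Of the 12, 1 rose (8.33%) and 5 fell (41.7%). All tested genes had 30.6% higher and 31.3% lower calls. Of the falls, Higd2a was lost without single libraries. Higd1a, a hypoxia-induced inner membrane protein, had 64.1, 63.2 and 73.9 CPM with CX-4945, against 129, 115 and 129.9 CPM with DMSO (edgeR log2 fold change -0.89 ± 0.08 SE, adjusted p = 5.6e-05). Vdac1, the outer membrane channel, had 424, 432 and 462 CPM with CX-4945, against 817, 748 and 879 CPM with DMSO (edgeR log2 fold change -0.89 ± 0.07 SE, adjusted p = 3.8e-05). Slc25a5, which exchanges ADP for ATP, was higher at 0.44 ± 0.06.

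Mitochondrial import genes, which bring the subunits into the organelle, had 12 of 25 higher (48.0%) and 1 lower (4.0%), where all tested genes had 30.6% and 31.3%. Of the 12, Tomm22, Tomm40, Timm8a1, Timm8b and Pmpca lost the call without single libraries, and so did the lower one, Timm44. Hspa9, the matrix import motor, had 517, 493 and 569 CPM with CX-4945, against 381, 394 and 392 CPM with DMSO (edgeR log2 fold change 0.44 ± 0.06 SE, adjusted p = 0.00053), and the small intermembrane chaperones Timm9 and Timm10 were higher at 0.56 ± 0.10 and 0.77 ± 0.14. The list of regulators of OXPHOS transcription also held Polg, Polg2 and Peo1, which serve the copying of mitochondrial DNA. Of its 16 tested genes, 8 were higher and 1 lower (6.25%), and each of these calls held without any single library. The lower call was Polg2, and Polg and Peo1 did not pass, so no regulator of transcription in the list was called lower. Tfam, which packages and transcribes mitochondrial DNA, had 73.0, 73.0 and 76.0 CPM with CX-4945, against 56.5, 55.6 and 52.4 CPM with DMSO (edgeR log2 fold change 0.43 ± 0.05 SE, adjusted p = 0.00025). The coactivators Pprc1 and Ppargc1b were higher at 0.64 ± 0.08 and 0.74 ± 0.12, and Nrf1 and Gabpa, factors known to bind respiratory gene promoters, at 0.37 ± 0.06 and 0.34 ± 0.05. Gabpa overlaps Atp5j on the opposite strand. Ppargc1a was under the filter, with 3 reads over the CX-4945 libraries and 1 over the DMSO libraries.

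**Figure D4:**
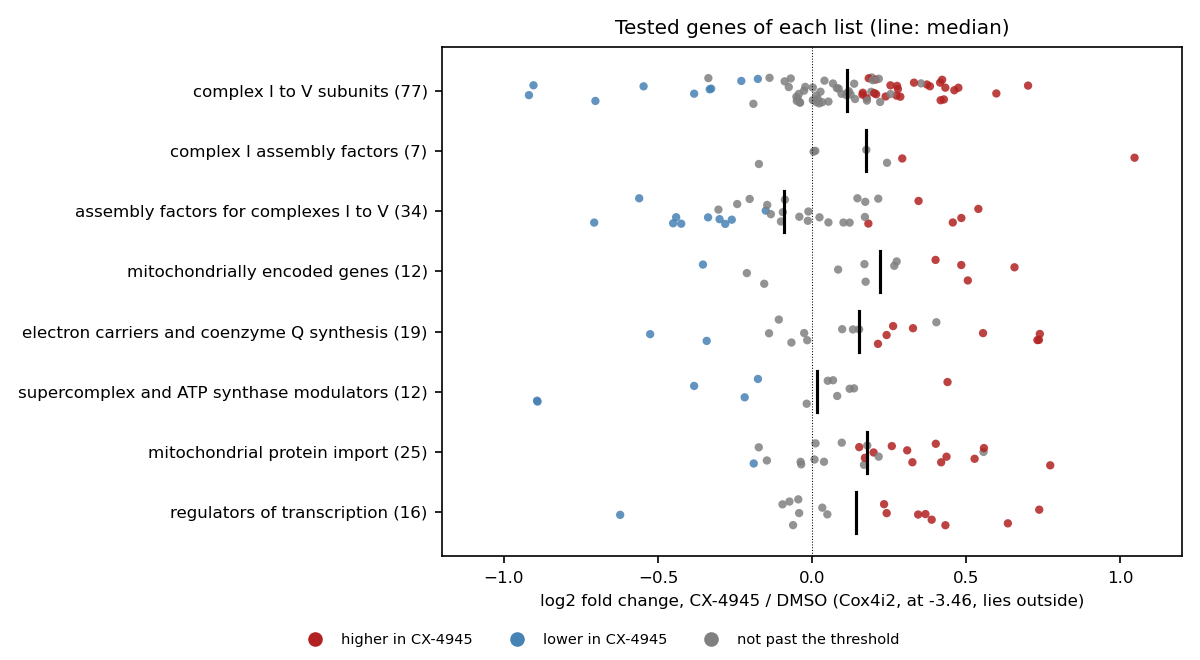
Log2 fold change of CX-4945 over DMSO for each tested gene of the OXPHOS subunits, the complex I assembly factors and 6 related lists, with the number tested in brackets and a line at the median; red is called higher, blue called lower and grey not called, and vertical scatter within a list has no meaning. The medians of the subunits, import and regulator lists lie above 0, at 0.11, 0.18 and 0.14, and that of the assembly factors for complexes I to V lies at -0.09.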

How the data were processed

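Counts of unique exon reads, whole reads per gene and not normalized, were taken from the table the authors deposited, per the file headers. Per the submitters' processing notes the genome was mm10. Aligner, annotation and strand setting were not given in the sources used here. Columns name the group but no replicate of the labels, so libraries were not paired. Only 1 kind of read was used. The remaining 84 columns of values by library, those of total exon reads and of reads over whole genes among them, were left out, and so were the intron reads planned from them. Pairs of libraries of a group differed by more than sampling noise (chi-square per degree of freedom 3.74 to 26.1).

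Genes passing filterByExpr of edgeR 4.0.16 (minimum count 10) were TMM-scaled (factors 0.971 to 1.02) and tested with the two-sided quasi-likelihood F test, Benjamini-Hochberg adjusted, at 0.05, in R 4.3.3; the biological coefficient of variation was 8.55%. The test was tried on simulated counts. Alternatives were other scalings, DESeq2 1.42.0, other filters and leaving out each library. All members entered the counts, and the values of 1 are not reported here. Values in every library were given for core subunits, isoform groups, the 3 highest and 3 lowest called members per complex reaching 5 CPM, and the 3 smallest adjusted p per list. Cox4i2, Atp5s, Atp5o and other members outside that rule were named after their values were seen. Members, lists and rules were chosen with earlier results of these data known. Of the list symbols, 8 matched no row. Overlaps came from GENCODE M21.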

Additional observations from a re-analysis of the deposited data

How the results depend on the processing

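No paired analysis was possible because the table's columns carry no replicate number of the labels. Under the scalings, filters and DESeq2, the subunits kept more higher than lower calls, 70.6% to 73.5% of calls being higher (71.4% as reported), and no scaling moved the median of all genes by more than 0.02. Leaving out each library gave 17 to 27 higher and 8 to 11 lower subunits. For the 64 single genes named by rule, 694 comparisons with an alternative kept their side of the threshold. The call was lost in 8 (in Atp5a1, Ndufv2 and mt-Co1). No sign reversed where either fit passed the threshold. Among genes not called the sign could change, as in Cox5b. Its log2 fold change was 0.03 as reported and as low as -0.04 without a single library. Of all 35 called subunits, 11 lost the call without at least 1 library. The lower calls of assembly factors, 0 as reported, were 1 (Ndufaf1) with a filter of at least 5 CPM in 3 libraries, where the number of genes adjusted over is smaller. The 20 lower calls of the 6 other lists were 13 to 21 without single libraries, 13 without CX-4945 library 2 or DMSO library 1. Leaving out each library, an alternative chosen after the data were seen, gave mean shares of 0.337% to 0.451% with CX-4945 and 3.14% to 4.95% with DMSO for Cox4i2. The planned comparisons with total exon reads and with intron reads were not run, although the columns left out are also given by library. Depth limits the members under 3 CPM.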

Other observations

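Coenzyme Q, the lipid that carries electrons to complex III, is made by the Coq enzymes, and these went both ways, in genes named after their values were seen. Coq4, a scaffold of the synthesis complex, had 12.5, 12.2 and 13.0 CPM with CX-4945, against 7.52, 9.06 and 6.15 CPM with DMSO (edgeR log2 fold change 0.73 ± 0.14 SE, adjusted p = 0.0021). Coq9, a lipid-binding partner of Coq7, had 41.4, 39.9 and 40.3 CPM with CX-4945, against 60.2, 50.3 and 64.6 CPM with DMSO (edgeR log2 fold change -0.53 ± 0.09 SE, adjusted p = 0.0013). Neither gene overlapped between groups. Coq7 itself, a hydroxylase, was higher at 0.33 ± 0.08 on the log2 scale.

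The enzymes of mitochondrial DNA also differed among themselves. Polrmt, the RNA polymerase of the organelle, had 48.7, 46.5 and 49.2 CPM with CX-4945, against 38.8, 38.0 and 33.6 CPM with DMSO (edgeR log2 fold change 0.39 ± 0.07 SE, adjusted p = 0.0015). Polg2, the accessory subunit of its DNA polymerase, had 12.5, 10.9 and 13.0 CPM with CX-4945, against 20.0, 17.2 and 19.0 CPM with DMSO (edgeR log2 fold change -0.62 ± 0.10 SE, adjusted p = 0.00089), lower in every CX-4945 library. Among assembly factors of complex I, Acad9 was higher at 0.54 ± 0.12 and Ecsit, its partner, lower at -0.34 ± 0.09 on the log2 scale, but the Ecsit call was lost without a single library, with adjusted p up to 0.06.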
